A study of Mus musculus with 8 samples.

Results

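Gad1, Gad2 and Slc32a1, which make and package the inhibitory transmitter GABA, and the transcription factors Dlx1, Dlx2, Dlx5, Dlx6 and Sp8 were followed in mouse forebrain neurospheres with and without FoxO3. These 8 genes were picked by name with their genotype differences already known, and every probe set that the array's annotation gives to one of their symbols was taken. That gave 13 probe sets of 45037 on the array and 8 genes of 18193, with no filter on dim values. Slc32a1 has 4 probe sets, Gad1 and Gad2 have 2 each, and the other genes have 1 each. One gene of the group stood out, Gad1, whose signal in FoxO3 null spheres was 53.1% of that in wild type spheres in its brighter probe set. In its other probe set the signal was 76.9%, and the difference did not pass. The brighter probe set passed in the main fit, but not in the fits that left out the set of arrays or took the level of Y-linked genes into account. The Dlx, Gad2 and Slc32a1 probe sets had genotype differences of at most 0.16 on the log2 scale. Sp8 had a difference of 0.46 ± 0.14 (SE), which did not pass. A fit that took the level of Y-linked genes into account gave Sp8 0.06 ± 0.24, too imprecise to tell from 0.46.

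GABA is made from glutamate by the 2 glutamate decarboxylases, encoded by Gad1 and Gad2, and is loaded into synaptic vesicles by the transporter encoded by Slc32a1. Dlx1, Dlx2, Dlx5 and Dlx6 are homeobox factors of the ventral forebrain that act in the making of GABAergic neurons and lie in the genome as adjacent pairs. Sp8 is a zinc finger factor of the lateral ganglionic eminence and of the precursors of olfactory bulb interneurons. In the adult forebrain the stem cells of the subventricular zone make mainly GABAergic neurons for the olfactory bulb, and cells of this region grow as neurospheres in medium with EGF and bFGF.

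The study concerns FoxO3, a forkhead transcription factor, in neural stem cells of adult mice. FoxO3 null (FoxO3-/-) and wild type (FoxO3+/+) mice were both on the FVB/N background, and secondary neurospheres of the forebrain grew in bFGF and EGF, each at 20 ng/ml, until day 6 after seeding at 50000 cells/ml. RNA of each of 8 samples was hybridised to 1 array, 4 FoxO3 null and 4 wild type, in 2 sets of arrays that each hold 2 of either genotype. The labels leave unsaid the age in weeks and sex of the mice, which part of the gene is missing and what distinguishes the sets. They also do not say if arrays of 1 genotype within a set are separate cultures. The array-to-array spread behind each p-value may therefore be technical. In the fit of genotype and set, this spread also takes in the change of the genotype difference between sets. Values are log2 expression, made by the authors with RMA, which sets every array to a like distribution. The array medians lay between 6.27 and 6.31, and the number of arrays limits the precision. The brightest Foxo3 probe set, 1434831_a_at, read 9.05 and 9.14 in set 2 and 8.86 and 9.08 in set 1 in FoxO3 null arrays, against 10.32 and 10.00 in set 2 and 10.24 and 10.26 in set 1 in wild type arrays. Every FoxO3 null array lay below every wild type array. Of the other Foxo3 probe sets, 1434832_at had a difference of -1.06 ± 0.10 (SE), while the dim 1450236_at went the other way, with 5.57 ± 0.06 in FoxO3 null and 5.24 ± 0.18 in wild type arrays (SD, n = 4 each).

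The table holds no calls of which probe sets are above background. Of the 13 probe sets, 5 had a mean above 6.28, the median of all probe sets: both of Gad1, that of Dlx2 and 1447574_s_at and 1456457_at of Slc32a1. The other 8, among them Dlx1, Dlx5, Dlx6, Sp8 and both of Gad2, lay below it. RMA compresses differences of dim probe sets. Spheres are mixtures of cells, so fewer cells of a type and less RNA per cell cannot be told apart.

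Promoter sequence was set beside the data for the 2 glutamate decarboxylases, because Gad1 and the dimmer Gad2 had unlike genotype differences over both sets. The 250 bases before the start of each gene are shown 5′ to 3′ from RefSeq (GRCm38.p6, the C57BL/6J reference, both on the plus strand), with the forkhead core AAACA, or its reverse complement TGTTT, in capitals. The Gad1 window is chr2:70561879-70562128 and the Gad2 window chr2:22622077-22622326.
Gad1: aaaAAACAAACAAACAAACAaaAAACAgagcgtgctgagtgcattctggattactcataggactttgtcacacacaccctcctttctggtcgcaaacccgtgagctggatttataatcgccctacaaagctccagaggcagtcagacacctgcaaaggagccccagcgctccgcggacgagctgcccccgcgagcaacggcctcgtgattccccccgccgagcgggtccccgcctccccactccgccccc
Gad2: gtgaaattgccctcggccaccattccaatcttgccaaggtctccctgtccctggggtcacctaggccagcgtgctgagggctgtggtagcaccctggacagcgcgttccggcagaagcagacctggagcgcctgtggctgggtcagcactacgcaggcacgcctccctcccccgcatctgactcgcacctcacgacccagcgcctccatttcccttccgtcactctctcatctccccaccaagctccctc

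The Gad1 window held 5 matches to AAACA, the first 4 of them overlapping by 1 base in a short repeat, at positions -247 to -224 from the start. The Gad2 window held 0. Among the other members with a window, a window of Sp8 held 2, and those of Slc32a1, Dlx1, Dlx2 and the other Sp8 starts held 0. The core is common: 46.4% of 32851 mouse promoter windows of this length held it on either strand. The longer FoxO motif GTAAACA (reverse complement TGTTTAC), which contains the core, stood in 3.17% of all windows and in 0 of the 8 windows listed for Gad1, Gad2, Slc32a1, Dlx1, Dlx2 and Sp8, the last with 3 starts. The homeobox core TAATT (reverse complement AATTA), of the kind that Dlx proteins bind, stood in 25% of all windows, and among these 8 in 2 of the 3 Sp8 windows. A match is a description of letters, and no match says only that they are absent from the window.

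Gad1 was lower in every FoxO3 null array than in any wild type array in its brighter probe set. Probe set 1416561_at read 7.999 and 8.05 in set 2 and 8.37 and 8.37 in set 1 in FoxO3 null arrays, against 8.99 and 8.63 in set 2 and 9.54 and 9.30 in set 1 in wild type arrays. The groups did not overlap, and the 2 FoxO3 null arrays of each set lay much closer to each other than the 2 wild type arrays did. The means were 8.20 ± 0.20 in FoxO3 null and 9.11 ± 0.39 in wild type arrays (log2, SD, n = 4 each), a difference of -0.91 ± 0.09 (limma, SE, with set as a term). In set 2 the difference was -0.78, or 58.1% of the wild type signal, and in set 1 -1.05, or 48.4%.

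The other Gad1 probe set, 1416562_at, gave a smaller difference. It read 7.10 and 7.16 in set 2 and 7.29 and 7.31 in set 1 in FoxO3 null arrays, against 7.48 and 7.04 in set 2 and 7.92 and 7.94 in set 1 in wild type arrays. In set 1 the genotypes were well apart, by -0.63, while in set 2 wild type array 2_2 lay below both FoxO3 null arrays and the difference was -0.13. Over both sets it was -0.38 ± 0.11 (SE). Both probe sets were therefore lower in FoxO3 null spheres on average, and only 1416561_at showed this without overlap in both sets. Gad1os, an antisense gene at the Gad1 locus chosen after its values were seen, averaged 5.78 ± 0.10 in FoxO3 null and 5.78 ± 0.14 in wild type arrays (log2, SD, n = 4 each).

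Of the 13 probe sets, 1 passed the test of genotype over all probe sets (limma, Benjamini-Hochberg adjusted p under 0.05), 1416561_at, where 0.802% of all 45037 passed in either direction and 0.586% passed as lower in FoxO3 null arrays. The groups of 4 arrays did not overlap in the same 1 probe set, against 3.11% of all. The genotype difference is what the genes were chosen by, so nothing is read from these counts. No gene lies just outside a threshold, since the choice was by name. In a fit without the set term 0 of the 13 passed, and 3 of all 45037, with 1416561_at at -0.91. With the mean level of Y-linked genes as a covariate 0 of the 13 passed, and 0 of all 45037, with 1416561_at at -0.94.

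**Figure D1:**
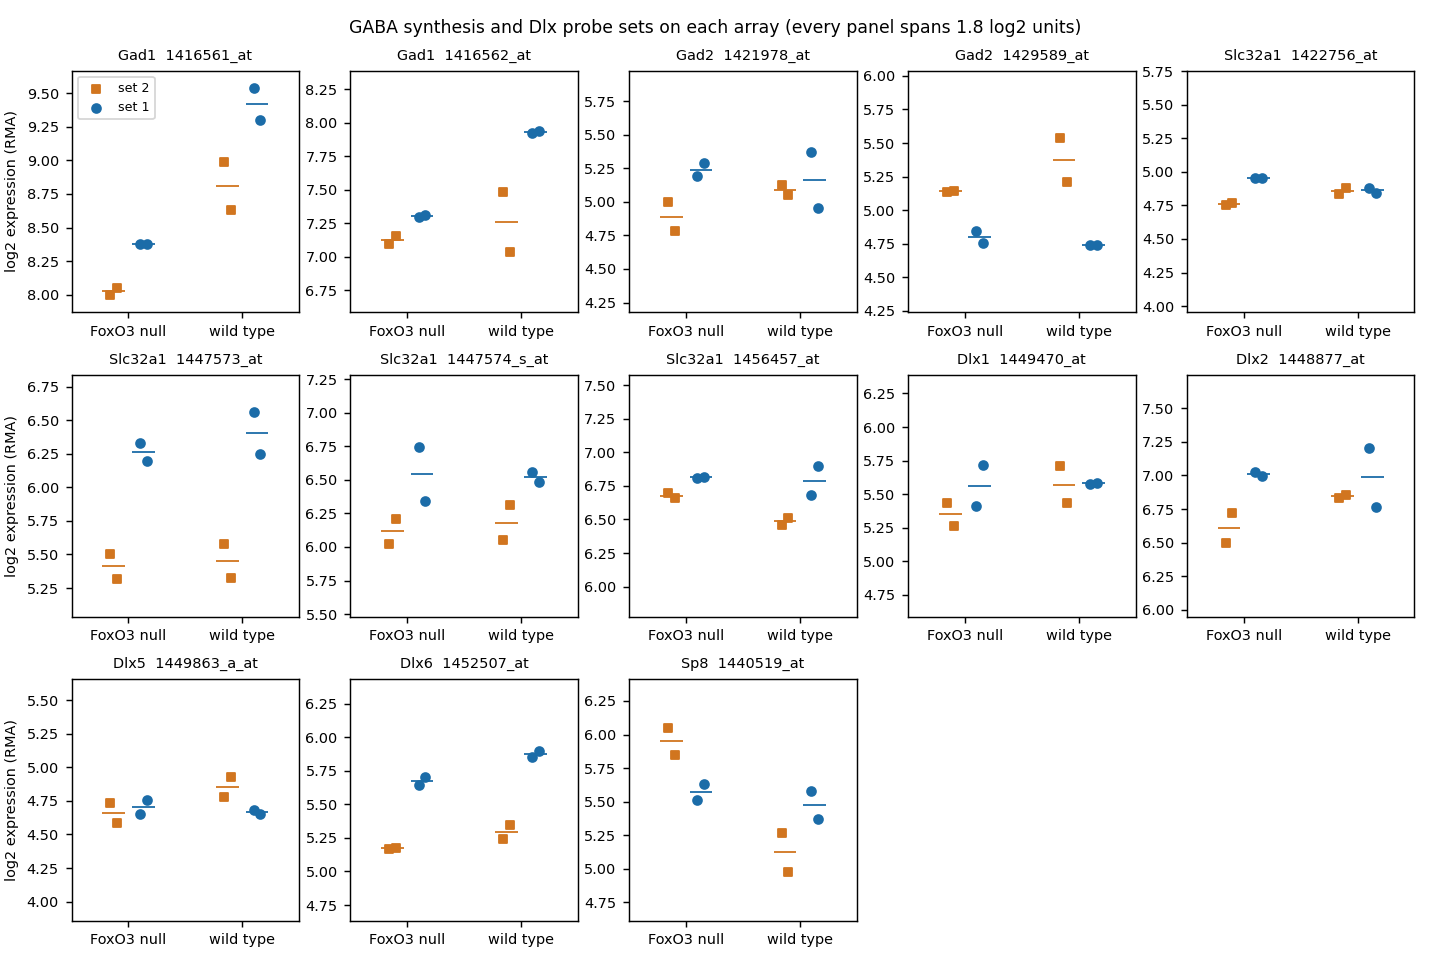
Log2 expression (vertical axis, RMA values) of the 13 probe sets on each of the 8 arrays, FoxO3 null left of wild type, with squares for set 2, circles for set 1 and bars for the mean of the 2 arrays of a set; all panels span the same number of log2 units. Gad1 1416561_at is the one panel in which all FoxO3 null arrays (7.999 to 8.37) lie below all wild type arrays (8.63 to 9.54).

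Gad2, the second decarboxylase, had smaller differences over both sets than Gad1, in 2 dim probe sets, where RMA compresses differences. Probe set 1429589_at read 5.14 and 5.14 in set 2 and 4.84 and 4.76 in set 1 in FoxO3 null arrays, against 5.54 and 5.21 in set 2 and 4.74 and 4.74 in set 1 in wild type arrays. FoxO3 null arrays were lower in set 2, by -0.23, and slightly higher in set 1, by 0.06, and the groups overlapped over the 8 arrays. Probe set 1421978_at ran the same way, -0.20 in set 2 and 0.08 in set 1, with -0.06 ± 0.10 (SE) over both. In set 2 the FoxO3 null arrays of both Gad2 probe sets lay below the wild type arrays, while Gad1 1416562_at (-0.13) overlapped. Groups of 2 and 2 arrays did not overlap there in 41.9% of all probe sets.

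Slc32a1, the vesicular GABA transporter, was measured by 4 probe sets with differences between -0.09 and 0.11 over both sets. The brightest, 1456457_at, read 6.70 and 6.66 in set 2 and 6.81 and 6.82 in set 1 in FoxO3 null arrays, against 6.46 and 6.51 in set 2 and 6.68 and 6.90 in set 1 in wild type arrays. It was a little higher in FoxO3 null arrays in set 2 and overlapped in set 1. The other probe sets gave -0.09 ± 0.09 (1447573_at), -0.02 ± 0.09 (1447574_s_at) and 0.00 ± 0.06 (1422756_at, SE), with overlapping groups over the 8 arrays in each.

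The 4 Dlx factors had small negative differences over both sets, and none passed. With the Y-linked covariate the sign turned for Dlx1 (0.10 ± 0.16), Dlx2 (0.23 ± 0.16) and Dlx5 (0.04 ± 0.14) and not for Dlx6 (-0.23 ± 0.11, SE). Dlx2, which acts early in ventral progenitors, read 6.49 and 6.72 in set 2 and 7.03 and 6.99 in set 1 in FoxO3 null arrays, against 6.83 and 6.85 in set 2 and 7.20 and 6.77 in set 1 in wild type arrays. In set 2 both FoxO3 null arrays were the lower ones, by -0.24, and in set 1 they lay between the 2 wild type arrays. Dlx1, its neighbour and partner, had 5.26 to 5.71 in FoxO3 null and 5.44 to 5.71 in wild type arrays, with -0.22 in set 2 and -0.02 in set 1. Over both sets the differences were -0.11 ± 0.10 for Dlx2 and -0.12 ± 0.09 for Dlx1 (SE), and that of Dlx2 ran between -0.22, without wild type 1_2, and -0.03, without FoxO3 null 2_1.

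Dlx5 and Dlx6, the pair that acts later in differentiating cells, lie on chromosome 6, while Dlx1, Dlx2 and both Gad genes lie on chromosome 2. Dlx6 read 5.17 and 5.18 in set 2 and 5.64 and 5.70 in set 1 in FoxO3 null arrays, against 5.24 and 5.34 in set 2 and 5.85 and 5.90 in set 1 in wild type arrays. Within each set both FoxO3 null arrays lay below both wild type arrays, but over the 8 arrays the groups overlapped, because the sets lay far apart. Its difference was -0.12 in set 2 and -0.20 in set 1, and -0.16 ± 0.05 (SE) over both. Dlx5, with 4.58 to 4.76 in FoxO3 null and 4.65 to 4.93 in wild type arrays, had -0.19 in set 2 and 0.04 in set 1. Groups of 2 and 2 arrays that do not overlap within a set are common here: 41.9% of all probe sets in set 2 and 38.4% in set 1. Of the 13 probe sets, 10 did not overlap in set 2 and 5 in set 1, among them the larger differences of Gad1 and Sp8. The genes were chosen by these differences, so nothing is read from the counts of the 13.

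Sp8 was the one factor of the group with a positive difference over both sets, most of it from set 2, and it did not pass. Probe set 1440519_at read 6.05 and 5.85 in set 2 and 5.51 and 5.63 in set 1 in FoxO3 null arrays, against 5.27 and 4.98 in set 2 and 5.58 and 5.37 in set 1 in wild type arrays. The genotypes were apart in set 2, by 0.83, and overlapped in set 1, where the difference was 0.10. The Y-linked gene Eif2s3y, a sign of the share of male cells, was also further apart in set 2 (-0.93) than in set 1 (-0.35). A fit that adds the Y-linked level gave Sp8 a difference of 0.06 ± 0.24 over both sets in place of 0.46 ± 0.14 (SE). With so wide an SE the 2 estimates cannot be told apart. The part of cell sex in the Sp8 difference was not tested.

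**Figure D2:**
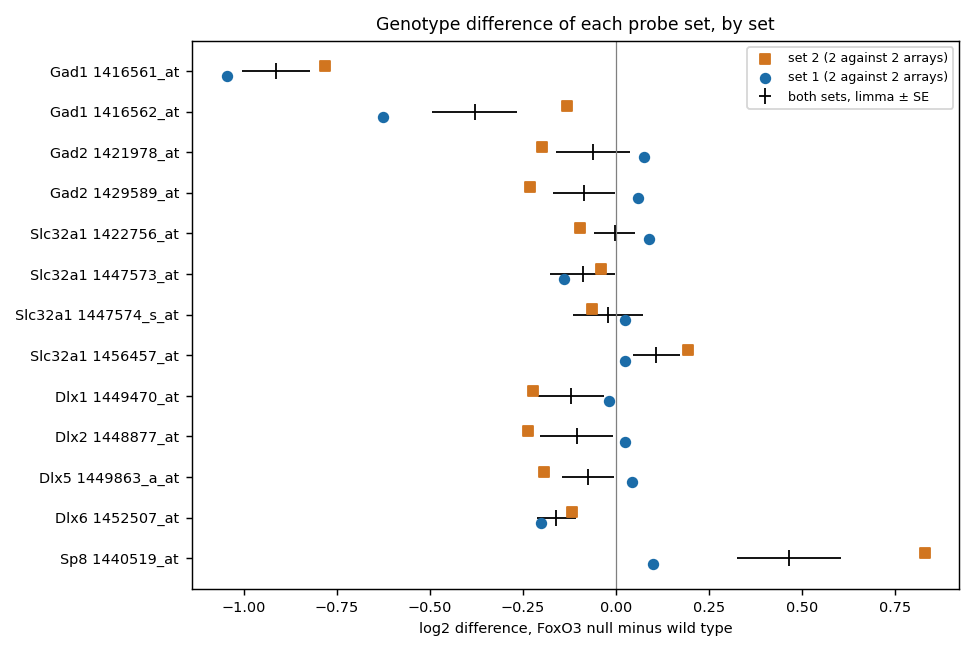
Log2 difference, FoxO3 null minus wild type (horizontal axis), of each of the 13 probe sets (rows), in set 2 (squares), in set 1 (circles) and over both sets (ticks, with the limma SE as a line). Gad1 1416561_at lies at -0.78 and -1.05 and Sp8 at 0.83 and 0.10 in set 2 and set 1, while the Dlx, Gad2 and Slc32a1 probe sets stay between -0.24 and 0.19.

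The change of the genotype difference between sets was built from the per-set differences that the genes were chosen by, so it is given as a description. It was 0.73 ± 0.17 for Sp8, set 2 minus set 1, 0.49 ± 0.17 for Gad1 1416562_at and 0.26 ± 0.17 for Gad1 1416561_at (limma, SE). None of the 13 probe sets passed the interaction test over all probe sets, where 0.0688% of all did. Nothing is read from this count.

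Levels of the group also differed between the sets of arrays, a measure that the choice of genes did not use. Of the 13 probe sets, 8 passed this test (limma, set 2 minus set 1, genotype as a term), against 38.4% of all probe sets. Lower in set 2 were 7, against 18.9% of all, and higher 1, against 19.5%. The 7 were both probe sets of Gad1, 1447573_at, 1447574_s_at and 1456457_at of Slc32a1, and those of Dlx2 and Dlx6. Genes with several probe sets thus count more than once. The median set difference was -0.22 over the 13 and -0.0074 over all probe sets.

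The largest of these set differences was in Slc32a1. Its probe set 1447573_at lay between 5.32 and 5.58 in set 2 and between 6.20 and 6.56 in set 1, a difference of -0.90 ± 0.09 (SE, limma adjusted p = 4.03e-05). Dlx6 lay between 5.17 and 5.34 in set 2 and between 5.64 and 5.90 in set 1 (-0.54 ± 0.05, adjusted p = 4.37e-05). In both probe sets no array of set 2 reached any array of set 1, whatever its genotype. The other Slc32a1 probe sets had smaller set differences of -0.38 (1447574_s_at), -0.22 (1456457_at) and -0.10 (1422756_at, adjusted p = 0.197), and in 1456457_at and 1422756_at the sets overlapped. Gad1 was lower in set 2 by 0.48 in 1416561_at and by 0.42 in 1416562_at (adjusted p = 0.00227 and 0.0139), with overlapping ranges.

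The 2 Gad2 probe sets had set differences of opposite sign. Probe set 1429589_at was higher in set 2 by 0.48 ± 0.08 (SE, limma adjusted p = 0.00134), with 5.14 to 5.54 in set 2 and 4.74 to 4.84 in set 1, while 1421978_at had -0.21 ± 0.10 (adjusted p = 0.111). The probe sets thus gave no common direction for the gene. Dlx2 was lower in set 2 by 0.27 at the edge of the threshold (adjusted p = 0.0496), and it missed the threshold without any 1 of 7 of the 8 arrays. Dlx1, Dlx5 and Sp8 did not pass, with set differences of -0.11, 0.07 and 0.01.

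Genes that belong to the same pathway or lineage were taken from 6 lists with 95 entries, of which 86 were measured. In the gene-level test 1 of the 86 passed, where 1.6% of all 18193 genes did, 1.17% as lower and 0.429% as higher in FoxO3 null arrays. The median difference of all genes was 0.0091. In the enzymes and transporters that break down and take up GABA, 0 of 5 passed and 4 had a negative difference (median -0.03). Slc6a11, a GABA transporter of astrocytes, had -0.20 ± 0.05 (SE, limma adjusted p = 0.0922), and Aldh5a1, which oxidises the breakdown product of GABA, -0.18 ± 0.06 (adjusted p = 0.153).

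Among ventral forebrain and interneuron transcription factors, 1 of 28 measured genes passed, 16 had a negative difference and the median was -0.08. The one that passed was Six3, a homeobox factor of forebrain development. It read 7.28 and 7.11 in set 2 and 7.27 and 7.23 in set 1 in FoxO3 null arrays, against 7.96 and 8.02 in set 2 and 8.52 and 8.17 in set 1 in wild type arrays. Every FoxO3 null array lay below every wild type array, and the difference was past the threshold (-0.95 ± 0.09, SE, limma adjusted p = 0.00121). It did not pass with no set term (adjusted p = 0.094) or with the Y-linked covariate (-1.14, adjusted p = 0.0598).

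The list of other Dlx genes and Dlx antisense genes had 0 of 4 passing, all 4 with a positive difference (median 0.06). Dlx antisense genes outside the list went either way, with Dlx4os at 0.08 ± 0.07 and Dlx6os2 at -0.02 ± 0.06 (SE). Dlx1as, antisense to Dlx1, averaged 4.70 ± 0.05 in FoxO3 null and 4.58 ± 0.02 in wild type arrays (SD, n = 4 each), a difference of 0.12 (limma adjusted p = 0.284), and Dlx3 had 0.07 (adjusted p = 0.681). Genes of interneuron subtypes and migration had 0 of 20 passing, with a median of 0.02. The smallest p there was that of Htr3a, the serotonin receptor of one class of interneurons, with 7.81 and 8.25 in set 2 and 7.09 and 6.82 in set 1 in FoxO3 null arrays, against 7.21 and 7.56 in set 2 and 6.51 and 6.57 in set 1 in wild type arrays. It was higher in FoxO3 null arrays within each set and missed the threshold (0.53 ± 0.11, adjusted p = 0.0514), which it met in some of the other fits. Reln, which encodes the guidance protein reelin, had -0.26 ± 0.13 (adjusted p = 0.373).

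Genes of the dorsal lineage and of neurons of any kind, GABAergic ones included, were set beside these values. Of 14 genes of the dorsal and glutamatergic lineage, the source of excitatory cortical neurons, 0 passed and the median was -0.0075. Eomes, of intermediate progenitors, had 0.19 ± 0.06 (SE, limma adjusted p = 0.195), and Neurog1, a proneural factor, -0.16 ± 0.07 (adjusted p = 0.307). Of 15 genes of neurons of any kind 0 passed, with a median of -0.05. Snap25, a synaptic protein, had -0.35 ± 0.08 (adjusted p = 0.0692) and Gap43, of growth cones, -0.40 ± 0.09 (adjusted p = 0.0726).

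**Figure D3:**
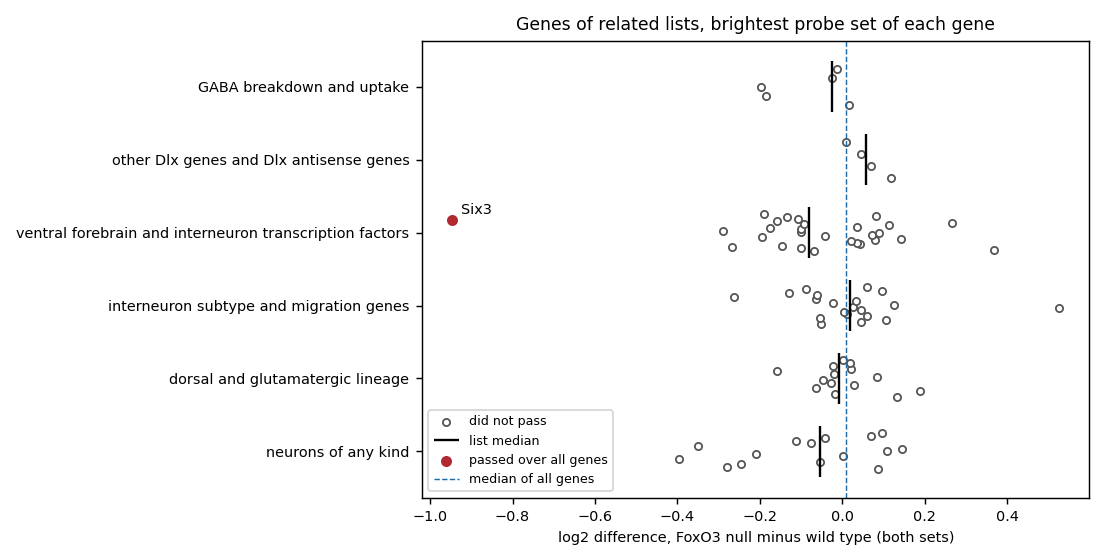
Log2 difference, FoxO3 null minus wild type (horizontal axis), of each measured gene in 6 related lists (rows), filled where the gene passed over all genes, with a black bar at each list's median and a dashed line at the median of all genes (0.0091). Six3, at -0.95, is the 1 gene that passed, and the list medians lie between -0.08 and 0.06.

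Some markers of other cells differed between genotypes, and their part in the Gad1 difference was not tested. Of 7 astrocyte markers 1 passed (Slc1a2, lower), of 7 oligodendrocyte lineage markers 3 (Pdgfra, Cspg4 and Sox10, all lower), and of 6 neural stem cell markers 1 (Nes, higher). Signs within these lists were mixed: 4 of the 7 oligodendrocyte lineage markers, 5 of the 7 astrocyte markers and 3 of the 6 stem cell markers had a negative difference. Among those that did not pass, Mbp had 0.44, Mog 0.24, Gfap 0.20, Sox2 -0.26 and Hes5 -0.29, named here after their values were seen. The median level of the astrocyte markers lay between 8.96 and 9.54 on FoxO3 null and between 9.21 and 10.46 on wild type arrays, and that of the oligodendrocyte lineage between 8.04 and 8.73 on FoxO3 null and between 8.38 and 9.34 on wild type arrays. Microglia, endothelial and mural, and ependymal markers had 0 of 6, 0 of 6 and 0 of 5 passing, and array medians from 4.85 to 6.42 in FoxO3 null and from 4.86 to 6.36 in wild type arrays; no marker can be at 0 on this log2 scale. The median level of the stem cell markers lay between 11.76 and 12.08 on FoxO3 null and between 11.78 and 12.03 on wild type arrays.

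Genes of cell sex differed too. Eif2s3y, on the Y chromosome, read 7.94 and 8.28 in set 2 and 8.67 and 8.87 in set 1 in FoxO3 null arrays, against 9.19 and 8.90 in set 2 and 9.24 and 9.01 in set 1 in wild type arrays. Xist, which is expressed in female cells, was higher in FoxO3 null arrays by 0.44 ± 0.08 (SE, limma adjusted p = 0.0288). Gad1 1416561_at had a difference of -0.94 ± 0.19 (SE) in the fit with the Y-linked covariate and -0.91 ± 0.09 without it. Gad1 1416562_at had -0.60 ± 0.22 with the covariate and -0.38 ± 0.11 without it. Neither passed with the covariate (limma adjusted p = 0.224 for 1416561_at and 0.661 for 1416562_at). The part of cell sex in the Gad1 differences was not tested.

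Genes whose pattern was most like that of Gad1 were sought over the 8 arrays. Likeness was the root mean square difference of log2 values after each set's mean was taken off, between the brightest probe sets of 2 genes. The 5 nearest were Fosl2, an AP-1 factor (0.08), Sbsn, an epidermal protein (0.10), Nrn1, the neurite growth protein neuritin (0.10), Otx2, a forebrain homeobox factor (0.11), and Ndrg2, an astrocyte-rich protein (0.12). The median gene lay 0.49 from Gad1. All 5 were lower in FoxO3 null arrays, by 0.75 to 0.93 on the log2 scale over both sets, and all had the larger difference in set 1. Within sets Gad1 differs mainly by genotype, so a search by likeness to it returns genes of this direction and set pattern. The values of the 5 genes also share the arrays of Gad1. None of the other 7 genes of the group was among them, and all 7 have smaller genotype differences than Gad1. Nothing is read from these traits.

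**Figure D4:**
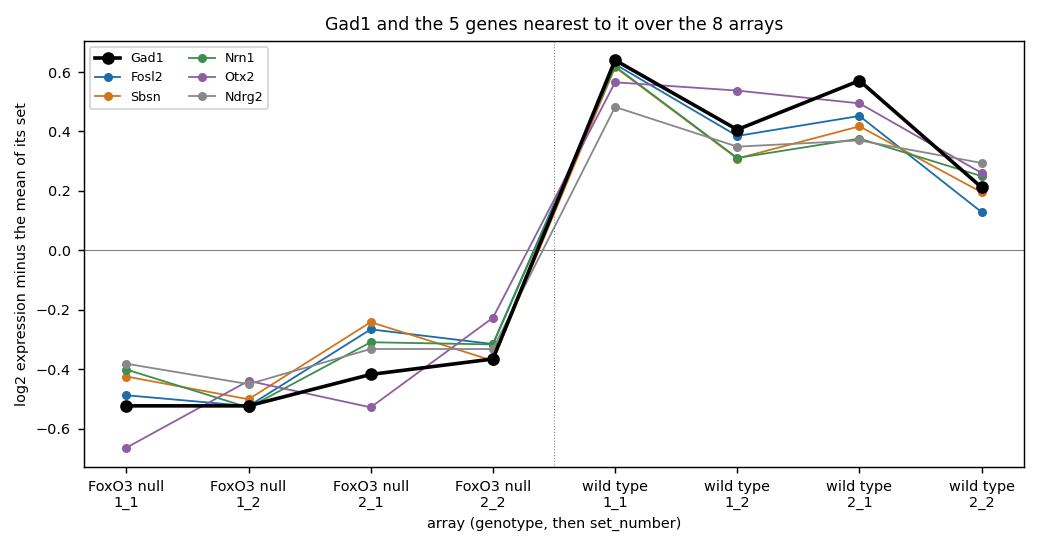
Log2 expression minus the mean of its set (vertical axis) of Gad1 (black) and the 5 genes nearest to it on the 8 arrays (horizontal axis, FoxO3 null left of wild type). The 6 genes lie below 0 on the 4 FoxO3 null arrays and above 0 on the 4 wild type arrays, as the choice by likeness implies. Gad1 is highest on wild type array 1_1, at 0.64.

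For Dlx2, the Dlx gene with the largest spread within sets, likeness says little, because its own values lay only 0.15 from flat by the same measure. The nearest genes were Obp2a (0.04), Twf2 (0.04), Slc34a2, Ceacam1 and Tmem119 (0.06 each), and 0 of these 5 passed the test of genotype. Of the 20 genes that RefSeq (GRCm38.p6) lists between Gad1 and Dlx2 on chromosome 2, a stretch chosen after the data were seen, 11 were measured. None of them passed in limma over all genes, and their differences ran from -0.12 to 0.45 with a median of 0.02. The lowest of them was Dlx1 itself, which lies in this stretch.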

How the data were processed

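The authors deposited a single table of log2 values for the 8 Affymetrix Mouse430_2 arrays, and the submitters' processing notes name RMA without a version. Quantile normalization in RMA hides a shift shared by all genes. Groups, sets and numbers came from the sample titles. Of 45101 probe sets, 64 Affymetrix controls were left out. Symbols came from GEO's annotation of the platform, and a probe set listing more than 1 symbol was assigned to none. A gene was represented by its brightest probe set.

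Genotype (FoxO3 null minus wild type) and set (set 2 minus set 1) were terms of 1 limma 3.58.1 fit (R 4.3.3, lmFit and eBayes, two-sided) over all probe sets, or over all genes for the lists, with Benjamini-Hochberg adjustment and a threshold of 0.05. The interaction was fitted the same way. The fits were tested on simulated data with known changes.

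The members and gene lists were chosen with earlier results of these data known. List genes that were not measured are not reported here. Named were all members, the passing genes of each related list or else the 2 with the smallest p, Foxo3, and the 5 genes nearest to Gad1 and to the Dlx gene of largest spread. Promoters came from RefSeq for 6 of the 8 genes. Alternatives covered the set term, a replicate block, array means, a random block, normalization, a filter, the variance model, the probe set of a gene and each array left out; a Y-linked covariate (Eif2s3y, Kdm5d, Uty) was added after seeing the data.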

Additional observations from a re-analysis of the deposited data

How the results depend on the processing

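Gad1 1416561_at kept its direction under every alternative tried, between -0.84 and -1.01 without any 1 array. In set 1 alone it was -1.05, with a range of -1.16 to -0.93 without 1 array, and in set 2 alone -0.78, with a range of -0.96 to -0.60. It was the 1 member probe set passing in all alternatives but 3: 0 passed in the fit lacking the set term and in that with the Y-linked covariate, and without wild type array 2_2 Gad1 1416562_at passed as well. The count of all probe sets passing the genotype test, 361, was 3 with no set term, 138 with set and number as a replicate block, 39 with array means, 1354 with a random block, 825 with a variance trend, 0 with the Y-linked covariate (limma; 2890 at an unadjusted p under 0.05) and 83 to 271 without 1 array, lowest without wild type 1_1 (83) and wild type 2_1 (85). The random block, of set and genotype, had a negative consensus correlation, -0.264, which makes SEs smaller than for independent arrays. That of Gad1 1416561_at was 0.076, against 0.091 in the main fit. The larger count with this block is therefore not read as a stronger result. Within sets, number 1 minus number 2 correlated between genotypes at 0.0739 in set 1 and -0.0582 in set 2, so the numbers are not taken to pair arrays. The interaction count, 31, was 150 with a variance trend and 4 to 29 without 1 array. The set count, 17281, was 11287 in the brighter probe sets, which are fewer, and 14134 to 15692 without 1 array. Of the related lists, 1 gene passed; 3 passed with the most variable probe set (Six3, Htr3a at adjusted p = 0.0491 and Bcl11b at 0.0339), 2 with the replicate block (Six3 and Htr3a), 0 with no set term or the Y-linked covariate, and 1 to 2 without 1 array. Among the set differences of members, Dlx2 missed the threshold without 7 of the 8 arrays and Slc32a1 1456457_at without wild type 1_2 or 2_1. Gad2 1421978_at passed without wild type 1_2 (-0.33). The causes of these changes were not tested.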
